A study of Mus musculus with 6 samples.

Results

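The genes described here are 43 members of the cell cycle and DNA replication machinery, taken by gene symbol from a table of 55487 mouse genes in which all 43 were found. They were read in RNA sequencing of lymphocytes sorted as live cells from the small-intestinal epithelium of wild-type (WT) C57BL/6J mice. One group was B220-CD3ε+CD45+ (labelled T cells) and the other B220+CD3ε+CD45+ (labelled X cells), with 3 libraries each, numbered as replicates 1 to 3. CD3ε is part of the T cell receptor complex, CD45 is the pan-leukocyte phosphatase Ptprc, and B220 is the long CD45 form that usually marks B cells. The title of the study mentions an RXR agonist (a drug acting on the retinoid X receptor), but no library used here carries a treatment label. The animals' age is not stated in the labels, and whether libraries of the same group stem from different animals is not stated either, so the spread behind the p-values may be technical. The 2 groups are gates of a sort and not a genetic model, and each library pools many cells.

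Gene counts summed to between 11320363 and 39591312 per library. All 6 genes of the sort check (Ptprc, Cd3e, Cd3d, Cd3g, Cd247, Lck) were present in every library, summing to between 6179 and 6672 CPM (counts scaled to a common library total). By the test described with the results, 1 of these 6 was lower in B220+ cells and 0 were higher (2 lower with DESeq2). Of the B cell markers, Ms4a1, Pax5, Ebf1 and Fcer2a were at or near 0 in all libraries, at most 0.437 CPM. The whole B cell list summed to between 25.3 and 34.7 CPM, most of it Cd79b, and 1 of its 2 tested genes, Blk, was lower in B220+ cells (0.982 against 0.0875 CPM). The plasma cell list summed to 265 to 384 CPM in B220- and 250 to 279 CPM in B220+ libraries, with Mzb1 at 0, and 2 of its 4 tested genes, Sdc1 and Prdm1, were lower in B220+ cells. This list gave 0 calls without B220- replicate 3 or B220+ replicate 1. It gave 1 call without B220- replicate 2, B220+ replicate 2 or 3, or both libraries numbered 1. A list of 6 markers of conventional CD4 and CD8αβ T cells was lower in B220+ cells for 6 of 6 genes by the test described with the results, with sums of 906 to 1524 CPM in B220- and 74.9 to 123 CPM in B220+ libraries. Sums of markers of macrophages and dendritic cells (mostly Itgax) and of mast cells and granulocytes (mostly Kit, with S100a8 and S100a9 at 0) were 254 to 327 and 50.5 to 109 CPM in B220-, and 388 to 537 and 202 to 317 CPM in B220+ libraries. The sums rest on few genes. Of 5 tested macrophage and dendritic cell genes, 1 was lower in B220+ cells and 0 were higher, with a median log2 fold change of -0.52. Of 3 tested mast cell and granulocyte genes, 1 was lower and 0 were higher, with a median of -0.057. The part of these differences in the results was not tested. Epithelial markers other than Epcam and Cdh1, which intraepithelial lymphocytes can express themselves, summed to between 16.4 and 66.1 CPM and were highest in replicate 3 of each group. Both libraries numbered 1 stood apart in the genes of mitosis, so results that rest on them are given with and without them. Same-numbered libraries were treated as pairs on correlations found in the data, not on a label. The deposited names of the count columns share no number between the groups.

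As background, a dividing cell passes from G1 through S phase, when DNA is copied, and G2 into mitosis. In G1, D-type cyclins with Cdk4 or Cdk6 and then E-type cyclins with Cdk2 phosphorylate the retinoblastoma protein (Rb1), which frees E2F factors to switch on replication genes. Inhibitors of the INK4 family (Cdkn2c, Cdkn2d) bind Cdk4 and Cdk6, and those of the CIP/KIP family (Cdkn1a, Cdkn1b) bind cyclin-CDK complexes, while the genes of mitosis are switched on late, from promoters bound by the MuvB complex with B-Myb and FoxM1. Intraepithelial lymphocytes are mostly long-lived resident T cells, and mRNA of S-phase and mitotic genes is widely used as a sign of cells in division.

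The clearest differences lay among the regulators of G1. Ccnd3 (cyclin D3), Cdk4, Cdkn1a (p21) and Cdkn2d (p19INK4d) were lower in B220+ cells, by between 1.20 and 1.65-fold, and no member was higher. In bulk libraries such as these, fewer cells of a type and less RNA per cell cannot be told apart. In total 4 of 43 members (9.30%) passed the test, all lower. Over all genes tested 11.1% passed (5.58% higher and 5.56% lower), so the members' share is near the background and is no result about the members as a group. The test was edgeR's quasi-likelihood F test with Benjamini-Hochberg adjustment over the 14722 genes tested, called under 0.05, and all 43 members passed its filter on low counts. The 4 calls differed in how well they held. Of 6 fits that each left out 1 library, Cdkn2d was called in 6, Ccnd3 in 5, Cdkn1a in 4 and Cdk4 in 1. The 28 members of replication, mitosis and proliferation gave 0 calls, 0 at an unadjusted p under 0.05 and 0 with DESeq2, with adjusted p between 0.478 and 0.989. The groups overlapped for 38 of 43 members, and for 5 (Ccnd3, Cdk4, Cdkn1a, Cdkn1b, Cdkn2d) every B220+ library was below every B220- library. The share over all genes tested is not given, so this count is no result about the members. In the pathway lists described below, 18 of 202 matched genes lay wholly below and 13 wholly above in B220+ libraries.

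The members' median log2 fold change, B220+ minus B220-, was -0.16, beside -0.0074 over all genes tested. It was -0.067 with the replicate number as a block, a fit that called 6 of 43 members (5 lower and 1 higher) against 17.5% of all genes. Without both libraries numbered 1 it was 0.032, with 3 of 43 members called against 8.67% of all genes. Those 3 were Ccnd3, Cdkn1a and Cdkn2d.

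**Figure D1:**
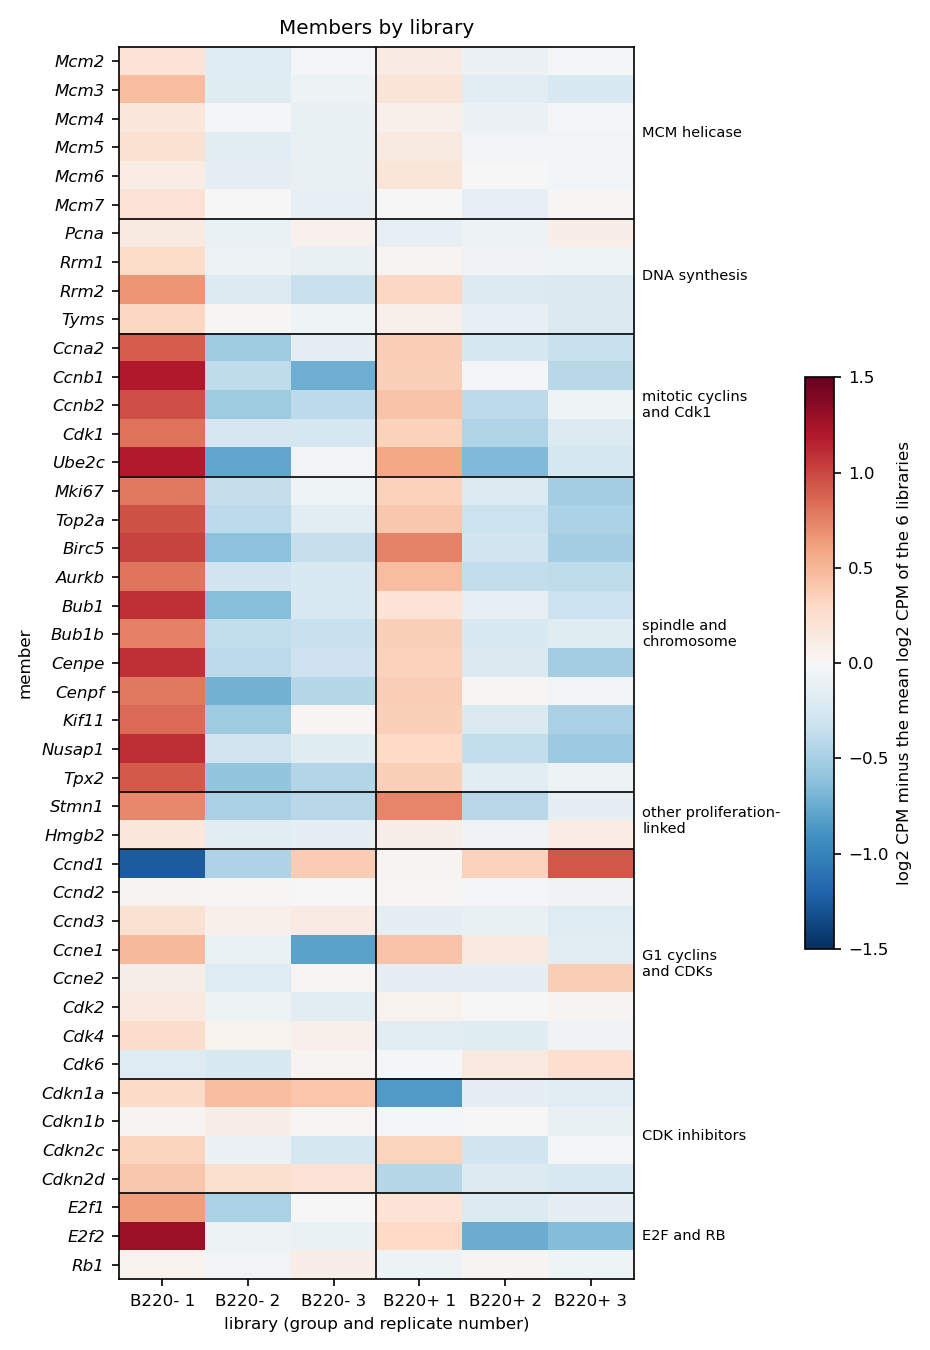
Colour gives each member's log2 CPM minus its mean over the 6 libraries, with members in rows by role and libraries in columns by group and replicate number. The mitotic rows are highest in B220- replicate 1 and next highest in B220+ replicate 1, while the rows of Ccnd3, Cdk4, Cdkn1a and Cdkn2d change at the line between the groups.

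The replicative helicase is a ring of 6 MCM proteins that is loaded on origins in G1 and unwinds DNA in S phase. Its genes differed little between the groups. Mcm2, Mcm3, Mcm4, Mcm5, Mcm6 and Mcm7 summed to 622.9, 500.2 and 506.6 CPM in B220- replicates 1 to 3 and to 589.2, 516.7 and 526.8 CPM in B220+ replicates 1 to 3. Replicate 1 was the highest library in each group and the groups overlapped for all 6 genes. The log2 fold changes lay between -0.16 (Mcm3) and 0.10 (Mcm6), and 3 of 6 were above 0. Mcm6, which had the largest value above 0, gave 151, 126 and 129 CPM in B220- and 159, 140.4 and 136 CPM in B220+ cells. Its 95% interval ran from -0.08 to 0.28 on the log2 scale (adjusted p = 0.563). Mcm3 had the widest interval of the 6, from -0.66 to 0.34. Mcm2 (log2 fold change 0.00, adjusted p = 0.989) and Mcm4 (-0.02, adjusted p = 0.927) were closest to 0. Mcm7 (-0.07) shares exonic bases with Cops6 and Ap4m1 on the opposite strand, whose counts were 80.0% and 58.8% of its own, and the counts may not tell these genes apart.

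Of the genes of DNA synthesis, Pcna is the sliding clamp of the polymerases, Rrm1 and Rrm2 are the subunits of ribonucleotide reductase, and Tyms makes thymidylate. Their summed CPM was 365.9, 289.8 and 307.6 in B220- and 304.9, 293.5 and 315.3 in B220+ replicates 1 to 3. Pcna gave 212, 179 and 202 CPM in B220- and 177, 184 and 206 CPM in B220+ cells, so the groups overlapped (log2 fold change -0.07, interval -0.24 to 0.11). Rrm1 had the same value of -0.07 with a similar interval, from -0.28 to 0.15. Rrm2, the subunit limited to dividing cells, gave 46.5, 25.5 and 23.3 CPM in B220- and 36.3, 25.4 and 25.3 CPM in B220+ cells. The libraries numbered 1 were its highest in both groups, which left an interval of -1.03 to 0.72 around a log2 fold change of -0.16. Tyms (-0.19, adjusted p = 0.478) had the smallest adjusted p of the 28 members of replication, mitosis and proliferation, with 18.3, 14.96 and 14.2 CPM in B220- and 15.6, 13.6 and 12.7 CPM in B220+ cells.

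The 16 mitotic members varied more between libraries of a group than between the groups. Their summed CPM was 553, 218 and 261 in B220- replicates 1 to 3 and 384, 246 and 224 in B220+ replicates 1 to 3. In all 16, B220- replicate 1 was the highest library and B220+ replicate 1 the second. Replicate 1 exceeded the mean of replicates 2 and 3 by between 1.99 and 3.33 times in B220- (median 2.55) and by between 1.31 and 2.19 times in B220+ cells (median 1.61).

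**Figure D2:**
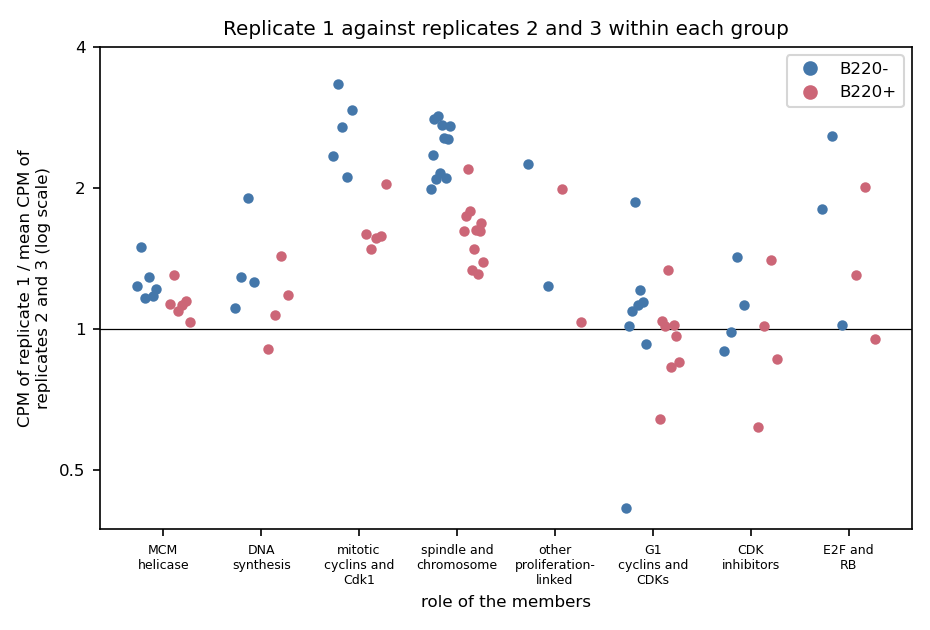
Each point is a member, placed by the CPM of replicate 1 divided by the mean CPM of replicates 2 and 3 of the same group, on a log axis, with members grouped by role. All points of the mitotic roles lie above 1 in both groups, from 1.99 to 3.33 in B220- and from 1.31 to 2.19 in B220+ cells, while those of the G1 roles lie on both sides of 1.

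Other values also differed between the replicate numbers. The conventional T cell markers were highest in replicate 1 of each group, at 1524 and 123 CPM, and their median ratio of replicate 1 to the mean of replicates 2 and 3 was 1.39 in B220- and 1.22 in B220+ cells. The 14 epithelial markers summed to 24.1, 26.3 and 66.1 CPM in B220- and to 16.4, 17.4 and 62.3 CPM in B220+ replicates 1 to 3. Replicate 1 was lowest but close to replicate 2, and replicate 3 stood apart. Lgr5 and Ascl2 of the crypt base had no count in either library numbered 1. The part of these differences in the mitotic values was not tested.

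Among the mitotic cyclins and their partners, Ccna2 drives S phase and G2, Ccnb1 and Ccnb2 with the kinase Cdk1 drive entry into mitosis, and Ube2c is a ubiquitin-conjugating enzyme of the anaphase-promoting complex. Ccnb1 gave 10.6, 3.57 and 2.80 CPM in B220- and 5.94, 4.53 and 3.47 CPM in B220+ cells. Cdk1 gave 15.2, 7.25 and 7.17 CPM in B220- and 10.9, 6.32 and 7.498 CPM in B220+ cells. For both genes, replicates 2 and 3 of the 2 groups lay among each other and only the libraries numbered 1 stood above them. The log2 fold change was -0.32 for Ccnb1 (interval -1.67 to 1.02, adjusted p = 0.811) and -0.30 for Cdk1 (interval -1.16 to 0.55, adjusted p = 0.711). Ube2c had the widest interval of the mitotic members, from -2.14 to 1.26, after 16.8, 4.31 and 7.17 CPM in B220- and 11.0, 4.66 and 6.15 CPM in B220+ cells. Ccna2 (-0.28) and Ccnb2 (-0.20) had the same order of libraries at the top, and Ccna2 overlaps Exosc9 on the opposite strand, with 140% as many counts. A pseudogene listed as Ccnb2-ps held 18.7% as many counts as Ccnb2, and reads could be split between them.

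Of the 11 genes of the spindle and chromosomes, Mki67 encodes the proliferation antigen Ki-67 and Top2a the topoisomerase that separates sister chromatids. Mki67 gave 132, 59.5 and 73.2 CPM in B220- and 97.5, 66.5 and 53.8 CPM in B220+ cells. Top2a gave 137, 53.8 and 62.7 CPM in B220- and 93.6, 56.6 and 50.9 CPM in B220+ cells. Each had its top values in the libraries numbered 1, and replicates 2 and 3 of both groups overlapped. Their log2 fold changes were -0.29 (interval -1.43 to 0.84, adjusted p = 0.780) and -0.35 (interval -1.71 to 1.01, adjusted p = 0.779). Per exonic length, Mki67 stood at 25.6 ± 10.7 TPM (a length-scaled abundance that sums to the same total in each library) in B220- and 21.2 ± 6.35 in B220+ cells, and Top2a at 27.3 ± 14.2 and 21.9 ± 7.27 (SD, n = 3).

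The other spindle genes were Birc5 and Aurkb of the chromosomal passenger complex, the checkpoint kinases Bub1 and Bub1b, the kinetochore proteins Cenpe and Cenpf, the spindle motor Kif11 and the microtubule-binding proteins Nusap1 and Tpx2. Kif11 gave 41.4, 15.9 and 23.5 CPM in B220- and 29.4, 19.8 and 16.5 CPM in B220+ cells. Nusap1 had the largest log2 fold change of the mitotic members, -0.56 (interval -1.79 to 0.66, adjusted p = 0.596), with 19.9, 7.48 and 8.13 CPM in B220- and 11.3, 7.10 and 6.30 CPM in B220+ cells. Nusap1 overlaps Oip5 on the opposite strand, with 12.5% as many counts (log2 fold change -1.31, adjusted p = 0.0921). Cenpf was the only mitotic member above 0 (0.06), at 12.01, 4.25 and 5.16 CPM in B220- and 8.99, 7.03 and 6.72 CPM in B220+ cells. For Cenpf, replicates 2 and 3 were higher in B220+ than in B220- cells and replicate 1 was lower. The values of Bub1 (-0.37), Cenpe (-0.43), Aurkb (-0.27), Birc5 (-0.17), Bub1b (-0.14) and Tpx2 (-0.11) lay between these.

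Over the 16 mitotic members the median log2 fold change was -0.30, 15 of 16 were below 0, and the standard errors ran from 0.359 to 0.647. The intervals reached from -2.14 to 1.40, so the fit by group alone still allows B220+ levels between 0.227 and 2.64 times those of B220- cells. With the replicate block, which rests on the inferred pairing, the median was -0.19, the standard errors ran from 0.113 to 0.239 and the intervals from -0.77 to 0.64 (0.587 to 1.55 times), with 0 calls in edgeR and 1 member at an unadjusted p under 0.05. Top2a then gave -0.26 (SE 0.113, adjusted p = 0.191) and Nusap1 -0.43 (SE 0.162, adjusted p = 0.0815). Matched by number, the B220+ library was below the B220- library for 16 of 16 members in number 1, for 3 in number 2 and for 10 in number 3, with median ratios of 0.689, 1.12 and 0.894. The direction of the median turned with 1 library: without B220- replicate 1 it was 0.30 with 16 of 16 members above 0, and without both libraries numbered 1 it was 0.022 with 9 of 16 above 0. Both fits made 0 calls among the 16 in edgeR and gave 2 members at an unadjusted p under 0.05. Without both libraries numbered 1 the intervals narrowed to between -0.66 and 1.03.

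Stmn1 and Hmgb2 are proliferation-linked genes outside these roles, encoding a protein that destabilises microtubules and a chromatin protein. Stmn1 gave 39.3, 17.1 and 17.9 CPM in B220- and 39.6, 17.9 and 21.9 CPM in B220+ cells. The pattern was that of the mitotic genes, with both libraries numbered 1 high, but B220+ replicate 1 was level with B220- replicate 1 (log2 fold change 0.05, interval -1.35 to 1.45). Hmgb2 lay between 266 and 332 CPM in all libraries, with a log2 fold change of 0.09 (interval -0.10 to 0.28).

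Since the mitotic members varied together across libraries, the 250 bases before the starts of the members were read from RefSeq promoter windows (GRCm38.p6). Windows were found for 34 of 43 members, and those without one were Aurkb, Ccna2, Ccnd1, Ccnd2, Ccne2, Mcm4, Rb1, Stmn1 and Tpx2. Searches on both strands used the cell cycle genes homology region (CHR, TTTGAA or TTCGAA), bound by the MuvB complex, the NF-Y box (CCAAT) and 4 forms of the E2F site (TTCCCGC or TTGGCGC or TTCGCGC or TTGCCGC). The form TTCGAA is its own reverse complement, and a pair of E2F forms can overlap on opposite strands. Capitals in the sequences mark matches. Mcm6 is shown for its E2F sites, Ccnb2, Mki67 and Top2a as mitotic genes with a CHR, and Ccnd3 (the first of its 2 windows) and Cdk4 as G1 genes that passed the test.
Mcm6, chr1:128359706-128359955, minus strand: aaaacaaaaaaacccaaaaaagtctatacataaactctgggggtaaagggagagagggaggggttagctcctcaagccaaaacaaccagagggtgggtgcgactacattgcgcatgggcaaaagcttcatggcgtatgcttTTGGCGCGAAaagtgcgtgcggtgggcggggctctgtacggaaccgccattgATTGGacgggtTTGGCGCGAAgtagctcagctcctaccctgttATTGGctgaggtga
Ccnb2, chr9:70421555-70421804, minus strand: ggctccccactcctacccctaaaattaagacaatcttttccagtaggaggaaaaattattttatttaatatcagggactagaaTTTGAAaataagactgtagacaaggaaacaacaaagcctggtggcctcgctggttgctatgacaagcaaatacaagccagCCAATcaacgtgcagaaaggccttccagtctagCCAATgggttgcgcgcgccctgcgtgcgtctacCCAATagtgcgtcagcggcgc
Mki67, chr7:135716380-135716629, minus strand: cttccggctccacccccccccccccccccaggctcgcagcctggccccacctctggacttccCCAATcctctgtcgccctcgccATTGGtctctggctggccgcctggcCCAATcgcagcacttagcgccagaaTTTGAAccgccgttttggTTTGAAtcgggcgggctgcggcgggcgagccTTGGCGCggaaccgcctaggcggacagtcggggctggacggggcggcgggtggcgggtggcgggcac
Top2a, chr11:99024190-99024439, minus strand: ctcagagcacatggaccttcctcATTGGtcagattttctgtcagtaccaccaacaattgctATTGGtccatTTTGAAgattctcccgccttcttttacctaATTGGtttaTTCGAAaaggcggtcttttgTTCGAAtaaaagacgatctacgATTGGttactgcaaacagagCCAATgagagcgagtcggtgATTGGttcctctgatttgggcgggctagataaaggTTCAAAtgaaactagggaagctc
Ccnd3, chr17:47504801-47505050, plus strand: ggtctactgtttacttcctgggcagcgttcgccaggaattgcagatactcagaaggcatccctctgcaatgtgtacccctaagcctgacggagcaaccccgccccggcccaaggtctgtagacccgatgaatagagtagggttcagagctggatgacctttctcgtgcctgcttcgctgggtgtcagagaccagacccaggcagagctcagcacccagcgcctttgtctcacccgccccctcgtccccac
Cdk4, chr10:127063285-127063534, plus strand: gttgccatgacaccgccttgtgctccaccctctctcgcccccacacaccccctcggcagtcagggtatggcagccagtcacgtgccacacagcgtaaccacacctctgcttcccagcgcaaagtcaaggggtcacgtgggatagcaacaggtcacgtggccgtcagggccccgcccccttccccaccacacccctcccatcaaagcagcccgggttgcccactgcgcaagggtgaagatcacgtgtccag

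Top2a held 4 CHR and 6 NF-Y box matches, Mki67 held 2 and 3 with 1 E2F match, and Ccnb2 held 1 and 3. Mcm6 held 4 E2F matches in 2 overlapping pairs, beside 2 NF-Y boxes. In the printed windows of Ccnd3 and Cdk4 none of these letters were found. The Ccnd3 window that is not printed held an NF-Y box 108 bases before its start.

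Among 13 mitotic members with a window, 7 (53.8%) held a CHR, 11 (84.6%) an NF-Y box and 3 (23.1%) an E2F form. Over all 27025 genes with a window these shares were 19.6%, 37.5% and 9.01%. Of the 9 MCM and DNA synthesis members, 2 held a CHR, 8 (88.9%) an NF-Y box and 5 (55.6%) an E2F form. Of the 11 G1 members, 1 (E2f2) held a CHR, 5 (45.5%) an NF-Y box and 2 (Cdk2 and Cdkn2c) an E2F form. These are letter matches and not measured binding.

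**Figure D3:**
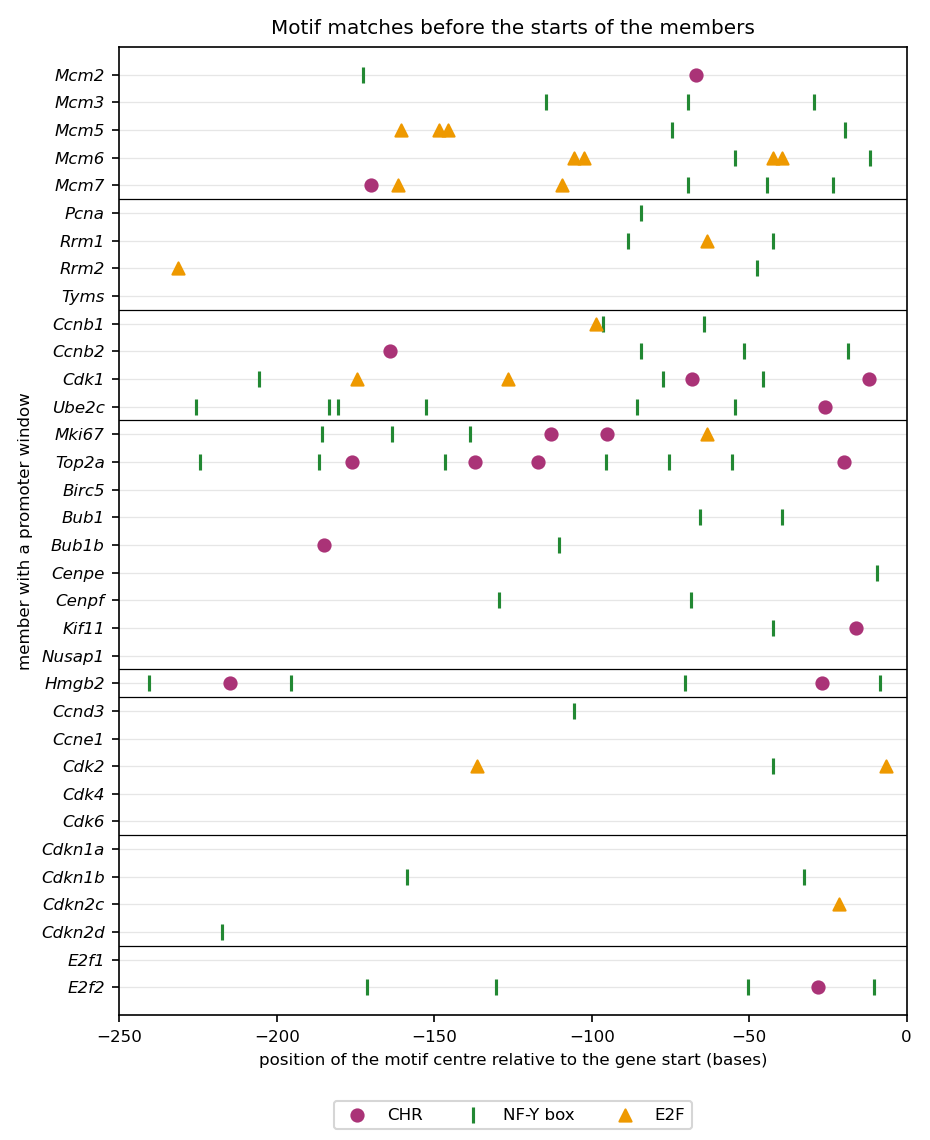
Each mark is a motif match, placed by its distance in bases from the RefSeq start of the gene, for the 34 members with a window, in rows by role; matches from the 5 members with 2 windows share a row. CHR matches lie in the rows of 7 of 13 mitotic members, and 8 rows hold no match (Tyms, Birc5, Nusap1, Ccne1, Cdk4, Cdk6, Cdkn1a and E2f1).

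The D cyclins and their kinases carry the signal from growth factors and the antigen receptor into the cell cycle. Ccnd2 was the main D cyclin of both groups, at 172 ± 3.28 TPM in B220- and 168 ± 3.92 in B220+ cells (SD, n = 3). Ccnd3 followed at 58.2 ± 2.83 and 47.8 ± 2.06 TPM, and Ccnd1 was near the bottom of the members at 0.722 ± 0.416 and 1.23 ± 0.397 TPM.

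Ccnd3 (ENSMUSG00000034165, chr17:47505051-47599691, mm10, plus strand) gave 185, 166 and 172 CPM in B220- and 144, 145 and 138 CPM in B220+ cells. All B220+ libraries lay below all B220- libraries. The log2 fold change was -0.29 (SE 0.0676, interval -0.44 to -0.15, adjusted p = 0.0127), a 1.23-fold lower level. The call held in 5 of 6 fits that left out a library and was lost without B220+ replicate 3 (adjusted p = 0.0604). The gene shares 361 exonic bases with Bysl on the opposite strand, whose counts were 30.3% of its own and which was also lower (log2 fold change -0.26, adjusted p = 0.0336), and the counts may not tell the pair apart.

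Ccnd2 gave 559, 552 and 549 CPM in B220- and 551, 533 and 527 CPM in B220+ cells, with overlap between the groups. Its interval was narrow, from -0.18 to 0.09 around -0.04 (adjusted p = 0.769). Within each library, Ccnd2 made up 73.7%, 75.4% and 74.5% of the TPM of the 3 D cyclins in B220- and 77.8%, 77.0% and 77.5% in B220+ replicates 1 to 3. This ratio was chosen after its parts were seen and is given as a description. Ccnd1 gave 0.593, 1.02 and 1.84 CPM in B220- and 1.44, 1.79 and 2.69 CPM in B220+ cells, from 50 and 126 counts in all (log2 fold change 0.83, interval -0.08 to 1.75, adjusted p = 0.275). Within each group its lowest library was replicate 1, the reverse of the mitotic genes. An opposite-strand gene, listed as LTO1, overlaps Ccnd1 and had many more counts, so the low values of Ccnd1 are uncertain.

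Cdk4 (ENSMUSG00000006728, chr10:127063534-127067920, plus strand) gave 101, 87.7 and 89.0 CPM in B220- and 75.3, 74.4 and 81.1 CPM in B220+ cells. The groups did not overlap. The log2 fold change was -0.27 (SE 0.0772, interval -0.43 to -0.10, adjusted p = 0.0420), a 1.20-fold lower level. The call held without B220- replicate 2 (adjusted p = 0.0362) and was lost without B220- replicate 1 (0.156) or 3 (0.0844) and without B220+ replicate 1 (0.129), 2 (0.159) or 3 (0.0618), and without both libraries numbered 1 it was 0.225. Cdk4 shares 641 exonic bases with Tspan31 on the opposite strand, whose counts were 24.2% of its own and which fell by 0.99 on the log2 scale (adjusted p = 0.00491). The part of Tspan31 reads in the Cdk4 difference was not tested.

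Cdk6, the other kinase that binds D cyclins, had the opposite sign. It gave 56.2, 54.9 and 66.0 CPM in B220- and 63.1, 71.3 and 76.8 CPM in B220+ cells. Each B220+ library was above the B220- library of its number, but B220- replicate 3 lay above B220+ replicate 1. The log2 fold change was 0.26 (interval 0.06 to 0.46, adjusted p = 0.104), and of the alternatives run, the gene passed only with the replicate block (adjusted p = 0.0114) and without the filter on low counts (0.0309). By TPM within a library, the ratio of Cdk6 to Cdk4 was 0.129, 0.145 and 0.172 in B220- and 0.195, 0.222 and 0.220 in B220+ replicates 1 to 3, again chosen after its parts were seen. In both groups Cdk4 exceeded Cdk6, at 83.3 ± 5.33 and 69.8 ± 2.87 TPM against 12.4 ± 1.61 and 14.8 ± 1.54 TPM.

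The kinase and cyclins of the step into S phase did not pass the test. Cdk2 gave 50.3, 42.8 and 40.2 CPM in B220- and 47.1, 45.5 and 46.5 CPM in B220+ cells (log2 fold change 0.06, interval -0.13 to 0.25). Ccne1 gave 12.4, 8.27 and 5.07 CPM in B220- and 11.9, 9.82 and 7.92 CPM in B220+ cells, with replicate 1 highest in each group (0.17, interval -0.52 to 0.86). Ccne2 gave 14.8, 12.2 and 14.1 CPM in B220- and 12.6, 12.5 and 18.0 CPM in B220+ cells (0.06, interval -0.28 to 0.40), and overlaps the more abundant Ints8 on the opposite strand. The groups overlapped for all 3 genes. The 8 genes of G1 cyclins and CDKs summed to 979.2, 925.6 and 936.8 CPM in B220- and 906.0, 893.5 and 897.3 CPM in B220+ replicates 1 to 3, most of it Ccnd2.

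**Figure D4:**
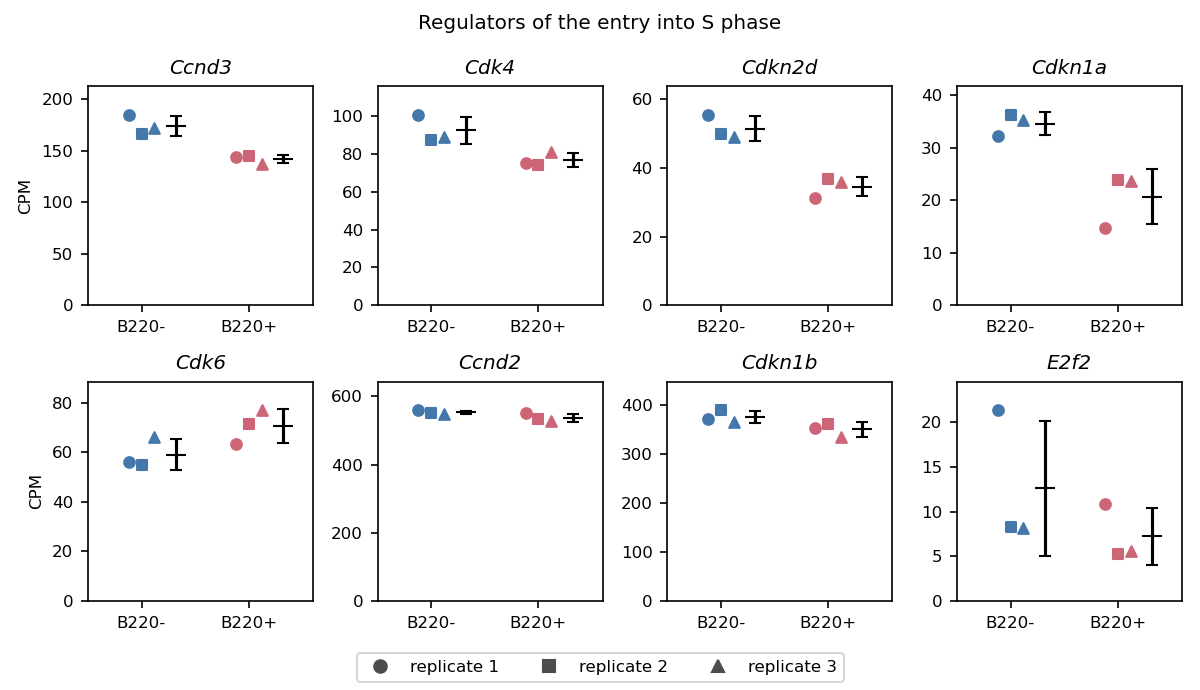
Points give the CPM of each library for 8 G1 regulators, marked by replicate number, and the bars give the mean ± SD of the 3 libraries of a group, with each panel starting at 0. Ccnd3, Cdk4, Cdkn2d, Cdkn1a and Cdkn1b show no overlap between the groups, while Cdk6, Ccnd2 and E2f2 do.

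The CDK inhibitors held the largest differences among the called members. Cdkn2d (ENSMUSG00000096472, chr9:21288410-21291407, minus strand), an INK4 inhibitor of Cdk4 and Cdk6, gave 55.6, 49.9 and 49.0 CPM in B220- and 31.3, 36.7 and 35.9 CPM in B220+ cells. The lowest B220- library lay well above the highest B220+ library. The log2 fold change was -0.57 (SE 0.0865, interval -0.76 to -0.38, adjusted p = 9.13e-04), a 1.48-fold lower level. It was called in 6 of 6 fits that left out a library (adjusted p from 0.00110 to 0.00540) and without both libraries numbered 1 (0.00419). No opposite-strand gene with over 10% of its counts overlaps it. Cdkn2d stood at 95.7 ± 4.81 TPM in B220- and 64.9 ± 6.45 TPM in B220+ cells, more than Cdkn2c, the other INK4 member, at 16.6 and 16.8 TPM.

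Cdkn1a (ENSMUSG00000023067, chr17:29090976-29100727, plus strand), the p53-inducible inhibitor p21, gave 32.2, 36.3 and 35.2 CPM in B220- and 14.7, 23.8 and 23.6 CPM in B220+ cells. B220+ replicate 1 was the lowest by a wide margin, and the other two B220+ libraries were still below every B220- library. The log2 fold change was -0.72 (SE 0.162, interval -1.08 to -0.35, adjusted p = 0.0197), a 1.65-fold lower level. The call was lost without B220- replicate 2 (adjusted p = 0.0566) or 3 (0.0878) and held in the other 4 such fits and without both libraries numbered 1 (0.00156). An opposite-strand gene listed as AC167363.2 overlaps it with 14.9% as many counts (log2 fold change -0.76, adjusted p = 0.1097).

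Cdkn1b (p27), an inhibitor that holds resting T cells in G1, was the most abundant inhibitor per length, at 241 ± 7.11 TPM in B220- and 226 ± 12.7 TPM in B220+ cells. It gave 371, 388 and 365 CPM in B220- and 353, 361 and 334 CPM in B220+ cells. The groups did not overlap, but the gap was small and the gene did not pass the test (log2 fold change -0.10, interval -0.24 to 0.04, adjusted p = 0.423). Cdkn2c gave 19.1, 14.2 and 12.6 CPM in B220- and 19.0, 12.3 and 14.8 CPM in B220+ cells, with replicate 1 highest in each group and a log2 fold change of -0.02 (interval -0.44 to 0.40). The 4 inhibitors together summed to 477.9, 488.7 and 461.4 CPM in B220- and 418.1, 434.3 and 407.8 CPM in B220+ cells.

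E2f1 and E2f2 are activating E2F factors, and Rb1 is the pocket protein that holds them in check. E2f2 gave 21.3, 8.33 and 8.22 CPM in B220- and 10.9, 5.24 and 5.59 CPM in B220+ cells. Replicate 1 was the highest library in each group, and within each number the B220- library was above the B220+ library, by 1.96, 1.59 and 1.47 times. The fit by group alone gave a log2 fold change of -0.87 (interval -2.27 to 0.54, adjusted p = 0.455), while with the replicate block it was -0.75 (adjusted p = 0.00143). Without both libraries numbered 1 it was -0.62 (adjusted p = 0.0724). E2f1 gave 14.8, 6.91 and 9.53 CPM in B220- and 11.0, 8.28 and 8.63 CPM in B220+ cells, again with the libraries numbered 1 on top (-0.18, interval -0.77 to 0.41). Rb1 varied little, from 149.6 to 169 CPM over all libraries (-0.07, interval -0.21 to 0.08). It overlaps Rcbtb2 and Lpar6 on the opposite strand, with 86.7% and 57.5% as many counts. Their log2 fold changes were -0.41 (adjusted p = 0.00378) and -0.37 (adjusted p = 0.0919), and their part in the Rb1 value was not tested.

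**Figure D5:**
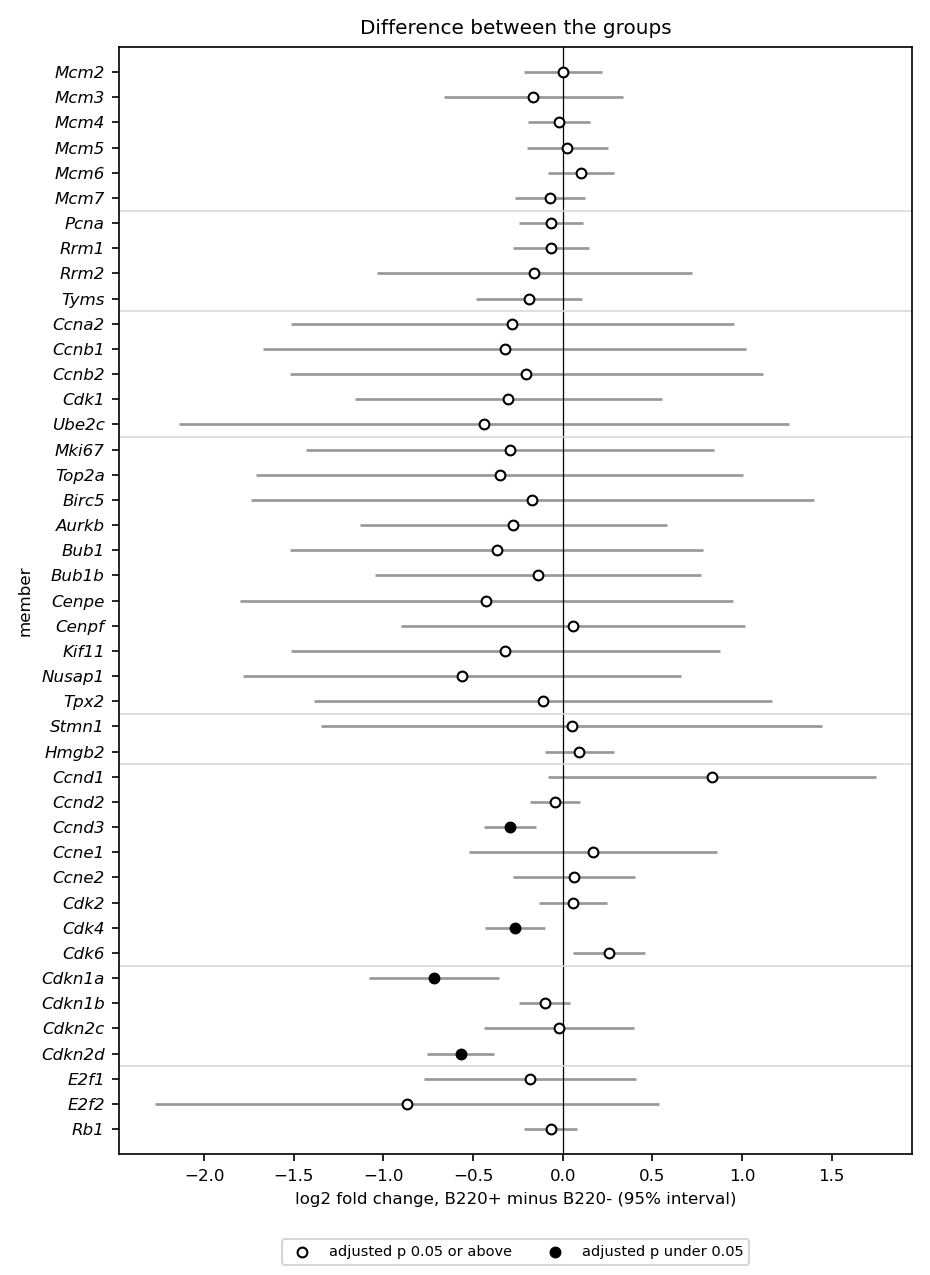
Circles give the log2 fold change of each member, B220+ minus B220-, with its 95% interval as a line, and filled circles mark an adjusted p under 0.05. The 4 filled circles (Ccnd3, Cdk4, Cdkn1a, Cdkn2d) lie left of 0 with intervals that do not reach 0, that of Cdkn1a being the widest of the 4. The mitotic members have intervals that reach from -2.14 to 1.40.

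Other genes of the pathway were read from 7 lists with 203 entries, of which 200 could be tested. In them 4 genes rose and 5 fell, fewer in share than the 11.1% of all genes that passed, and their median log2 fold change was -0.085. The replicate block gave 26 calls among the 200 (10 higher and 16 lower), in a fit that called 17.5% of all genes tested.

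Of 22 genes of origin licensing and firing, 2 fell, 0 rose and the median was -0.15. Cdt1, which loads the MCM helicase, gave 40.0, 35.8 and 40.9 CPM in B220- and 27.9, 30.9 and 29.9 CPM in B220+ cells, without overlap (log2 fold change -0.39, adjusted p = 0.0110). Its adjusted p was 0.0556 without B220- replicate 3 and 0.0684 without both libraries numbered 1. Dbf4, the activating subunit of the Cdc7 kinase, fell from 48.5 ± 5.48 to 38.1 ± 3.01 CPM (SD, n = 3, adjusted p = 0.0297), a call that was lost without B220- replicate 1 (0.106) or 3 (0.0556), without B220+ replicate 2 (0.160) or 3 (0.0842), and without both libraries numbered 1 (0.0583). The genes of the list with the highest CPM (not scaled for length), Topbp1 (91.9 and 90.0, B220- and B220+ means) and Mcmbp (75.8 and 75.6), did not pass.

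Of 30 tested genes of the replicative polymerases and fork, 1 rose and 0 fell. Rfc2, a subunit of the clamp loader of Pcna, gave 181, 206 and 177 CPM in B220- and 283, 271 and 281 CPM in B220+ cells. Its log2 fold change was 0.57 (adjusted p = 2.66e-04), called in 6 of 6 fits without a library. It shares 952 exonic bases with Lat2 on the opposite strand, which had 94.6% as many counts and rose by 0.97 (adjusted p = 0.00216), and their reads may not be told apart. Rpa1 had the highest CPM of the list, 296 and 328, and did not pass.

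Of 15 genes of replication-coupled chromatin 0 passed in edgeR (3 at an unadjusted p under 0.05), 2 were lower in DESeq2 and 3 with the replicate block. Tubb5 (355 and 282 CPM) and H2afz (187 and 197 CPM) had the highest CPM, and Tubb5 was among the last (adjusted p = 0.105, and 6.80e-04 with the block). Of 61 further genes of mitosis and the spindle 1 rose and 0 fell, and their median was -0.19. The list followed the mitotic members in its replicates, with a median ratio of replicate 1 to the mean of replicates 2 and 3 of 1.87 in B220- and 1.39 in B220+ cells. The gene that rose was Cenpa, the histone H3 variant of centromeres. Cenpa did not follow that order: it gave 78.2, 77.3 and 78.6 CPM in B220- and 115, 123 and 117 CPM in B220+ cells, with no high replicate 1. Its log2 fold change was 0.60 (adjusted p = 8.22e-05), and it was called in 6 of 6 fits without a library. Smc4, a condensin subunit with the highest CPM of the list (249 and 245), did not pass.

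Of 19 tested genes of E2F, pocket proteins and the DREAM complex, 1 rose and 1 fell. Max, the partner of Myc, rose from 160 ± 21.5 to 249 ± 14.9 CPM (SD, n = 3, adjusted p = 7.63e-04), with B220- libraries up to 182 CPM and B220+ libraries from 232 CPM. Lin9, a subunit of the MuvB complex, fell from 17.9 ± 0.849 to 13.5 ± 1.04 CPM (adjusted p = 0.0447), but passed in 0 of 6 fits without a library (adjusted p from 0.0648 to 0.145) and not in DESeq2 (0.0760). Rbl2 (329 and 326 CPM) and Rbbp4 (208 and 209 CPM) had the highest CPM and did not pass. Of 32 other cyclins, CDKs and inhibitors 0 passed in edgeR or DESeq2 (4 at an unadjusted p under 0.05 in edgeR). They include Ccni (464 and 475 CPM) and Ccnl1 (372 and 330 CPM), and their replicate 1 did not stand out (median ratios of 0.973 and 1.01).

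Of 21 tested genes linked to p53 or quiescence, 1 rose and 2 fell, with a median of -0.0018. Gadd45b, a stress-induced gene of the Gadd45 family, gave 339, 337 and 338 CPM in B220- and 151, 160 and 157 CPM in B220+ cells, which is 2.16-fold lower (log2 fold change -1.11, adjusted p = 4.18e-07). Its libraries hardly varied within a group, and it was called in 6 of 6 fits without a library. Klf2, a factor of quiescence and recirculation in T cells, gave 79.6, 89.0 and 79.0 CPM in B220- and 18.7, 35.8 and 28.6 CPM in B220+ cells, a 2.91-fold lower level (adjusted p = 0.0122, lost without B220- replicate 1 at 0.0763 and without B220+ replicate 3 at 0.0616). Foxo1, a factor upstream of Klf2, had the opposite direction, from 207 ± 11.4 to 258 ± 10.5 CPM (SD, n = 3, adjusted p = 0.00959, and 0.0550 without B220- replicate 3). It overlaps Gm20402 on the opposite strand, with 20.2% as many counts. The antiproliferative genes Btg1 (2637 and 2432 CPM) and Btg2 (949 and 857 CPM) had the highest CPM of this list and did not pass.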

How the data were processed

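The authors deposited raw read counts (whole numbers, one per gene) for 6 libraries of total RNA. Per the submitters' processing notes, FastQC 0.11.7, Trimmomatic 0.38, HISAT2 2.1.0, SAMtools 1.9, featureCounts 1.6.3 and the mm10 build were used. Options, annotation release and strand setting: not given in the sources used here, although the labels' protocols name a directional kit. Of 55487 genes, 29211 had no count.

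Members, roles and lists were chosen with earlier results of these data known. All members are named, and of each list the called genes and the 2 most abundant. One list entry of 203 was not matched.

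Counts were tested with edgeR 4.0.16 in R 4.3.3 (trimmed-mean scaling, filterByExpr with minimum count 10 and minimum total 15, robust quasi-likelihood F test, group alone, Benjamini-Hochberg), after a test on simulated data. Intervals (95%) come from the same fit. CPM used scaled totals (factors 0.990 to 1.01), TPM the union of exons of GENCODE M21, in which 98.95% of gene models had the same start and end. Alternatives were DESeq2 1.42.0, other scaling, no filter, the replicate block and left-out libraries. Leaving out both libraries numbered 1 was added after the data were seen. Same-numbered libraries correlated at 0.324, 0.293 and 0.283 in their deviations from group means, and others at -0.214 to -0.067. Deviations cancel out within a group, so positive values for same numbers bring negative ones for others, which are no separate evidence of pairing. All 3 pairs being above 0.1, same-numbered libraries were treated as pairs, an inference from the data. Within a group, libraries differed by more than counting noise (chi-square over its degrees of freedom 6.86 to 14.9).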

Additional observations from a re-analysis of the deposited data

How the results depend on the processing

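The 4 calls among the members were the same genes under other scaling and DESeq2. The number of members called was 5 with no filter (adding Cdk6), 6 with the replicate block (adding Cdk6 and E2f2), 3 without both libraries numbered 1, and 2 to 3 in fits without 1 library. Genes called over the whole table numbered 1639 (11.1%), and 970 to 1789 without 1 library. With the replicate block they numbered 2569 (1621 of the 1639 shared), which is 17.5% of all genes beside 13.95% of the members. They numbered 2211 of 26276 with no filter, 1761 with DESeq2 and 1296 (8.67%) without both libraries numbered 1. Calls in the pathway lists numbered 9, and 19 with no filter, 26 with the replicate block, 5 to 15 without 1 library and 14 without both libraries numbered 1. The replicate block changed no other call of a member. Without B220- replicate 1, 22 uncalled members changed sign, and 14 without both libraries numbered 1. The ratio of summed CPM, B220+ to B220-, was 0.919 for the G1 cyclins and CDKs without Ccnd2 (0.949 with it), 0.697 for the inhibitors without Cdkn1b (0.882 with it) and 0.718 for E2F and RB without Rb1 (0.925 with it). E2f1 and E2f2 were highest in replicate 1 of each group, and their ratio without these libraries is not given here. The cause of the shifts between fits was not tested.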
